A study of Mus musculus with 4 samples.

Results

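The genes Nr4a2, Nr4a3, Klf4 and Klf9 encode transcription factors of the NR4A and Kruppel-like families, and together they were paired by the authors with 7 peaks of differential H3K9ac, of the 20943 deposited. The members are every peak paired with one of these 4 genes in the rows held here of the study's table of selected H3K9ac peaks, matched by peak name to the deposited list. The peaks of that table were chosen by their read numbers among regions already called different between the CIH and RA libraries, so the direction and the presence of each member are a description and no test. The rows held here cover 483 of the deposited peaks, and further peaks of these genes may stand in the remaining rows, which were not analysed here.

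The libraries were made from aorta macrophages of C57BL/6J mice exposed for 20 weeks either to chronic intermittent hypoxia (CIH), with 90 seconds at 6.1% oxygen alternating with 90 seconds at 21% for 12 hours a day, or to room air (RA), at 21% oxygen in matching cages. The cells were taken from digested aortas with magnetic beads against CD11b, a surface protein that other myeloid cells also carry, and the age of the mice is not given in the sources used here. Each exposure gave 1 library for H3K9ac and 1 for H3K27me3, so 4 in all, with no input or control library among them. Hence no value below has a replicate error, the number of reads behind each peak was not used here, and every direction compares 2 libraries rather than 2 groups of mice. A list of differential peaks gives no level of a marker gene, so the cell type label could not be checked against it. Of 21900 protein-coding genes in RefSeq, 2.38% were paired with a peak in the rows held here. Of 10 macrophage markers, Mertk alone had one, higher in RA, and none of 13 markers of endothelium, smooth muscle, fibroblasts and lymphocytes did, which at that share says nothing of the cells.

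H3K9ac is an acetyl group on the tail of histone H3 that marks active promoters and enhancers, whereas H3K27me3 marks genes silenced by Polycomb proteins. NR4A factors are nuclear receptors with no known need for a ligand, whose genes are switched on within minutes by many stimuli, among them cyclic AMP acting through CREB, and which restrain inflammatory gene expression in macrophages. Kruppel-like factors bind GC-rich and CACCC sequences through zinc fingers, and KLF4 takes part in monocyte differentiation and alternative macrophage activation while KLF9 is a target of glucocorticoid and thyroid hormone receptors and responds to oxidative stress.

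Short stretches of the member peaks, other than the second Klf4 peak, are shown first. Most were taken around a motif, so they do not stand for whole peaks. They are the plus strand of mm9 as the study gives it, with repeats masked. The first 4 stretches below hold a short motif in capitals. In both Nr4a3 stretches it is TGACG, the short site of the cyclic AMP response element bound by CREB and ATF factors, or its reverse complement CGTCA. In the Nr4a2 stretch it is the E-box CACGTG, and in the Klf4 stretch it is ACGTG, the core of the hypoxia response element, or its reverse complement CACGT.

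Nr4a3 peak at the gene start, chr4:48057927-48058126: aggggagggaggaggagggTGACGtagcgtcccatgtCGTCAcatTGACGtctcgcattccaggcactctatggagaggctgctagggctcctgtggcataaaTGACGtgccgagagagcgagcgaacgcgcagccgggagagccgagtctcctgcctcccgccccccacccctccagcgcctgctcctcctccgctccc
Nr4a3 upstream peak, chr4:48055751-48055870: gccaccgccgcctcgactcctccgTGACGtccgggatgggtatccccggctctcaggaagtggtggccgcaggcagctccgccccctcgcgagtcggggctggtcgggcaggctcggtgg
Nr4a2 peak, chr2:56975851-56975970: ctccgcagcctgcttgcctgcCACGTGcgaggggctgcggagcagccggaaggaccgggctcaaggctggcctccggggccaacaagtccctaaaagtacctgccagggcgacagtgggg
First Klf4 peak, chr4:55544471-55544590: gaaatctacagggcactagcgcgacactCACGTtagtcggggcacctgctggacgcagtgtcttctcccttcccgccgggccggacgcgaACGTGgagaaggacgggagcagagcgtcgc

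The 2 peaks of Klf9 went in opposite directions, and a stretch of each is shown. The first was taken where GC boxes lie. Of the wide peak of 4150 bp, at most the first 400 bases were held, so the contrast is between these stretches and not between whole peaks. The capitals mark the GC box, CCGCCC on this strand, which Sp and Kruppel-like factors bind. The second stretch, the left edge of the wide peak that was higher in CIH, holds none of the motifs searched.

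Klf9 peak higher in RA, chr19:23210521-23210670: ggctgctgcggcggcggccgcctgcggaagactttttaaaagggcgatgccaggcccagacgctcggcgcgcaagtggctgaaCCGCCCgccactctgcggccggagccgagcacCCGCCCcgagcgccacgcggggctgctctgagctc
Klf9 peak higher in CIH, chr19:23214301-23214450: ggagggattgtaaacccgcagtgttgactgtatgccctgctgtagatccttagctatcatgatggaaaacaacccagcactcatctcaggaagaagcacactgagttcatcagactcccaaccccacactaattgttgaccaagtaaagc

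Of the 7 member peaks, 5 were higher in CIH and the other two in RA, where 45.4% of all deposited H3K9ac peaks and 48.9% of those in the table rows held here were higher in CIH. As the members were picked with these directions known, nothing is read from that count. Both peaks of Nr4a3 and both of Klf4 were higher in CIH, and the single peak of Nr4a2 was higher in RA. Klf9 had a peak of 600 bp higher in RA and one of 4150 bp higher in CIH. That the members of each family did not share 1 direction was likewise known when they were picked, and it is a description only.

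Nr4a3, which encodes NOR-1, had its 2 peaks on chromosome 4. The upstream peak ran from 48055751 to 48057050, a width of 1300 bp, and the other ran from 48057901 to 48058650, a width of 750 bp. They were 850 bp apart. The RefSeq promoter of Nr4a3, which spans 250 bases before and 50 after the gene start, was found inside the second peak, where 218 bases matched and the other 82 were masked. This places the RefSeq start at position 48058177 of mm9, inside the second peak, 276 bp from its left edge and 473 bp from its right. The upstream peak ended 1126 bp before the start. The same peaks were also paired by the authors with Gm12434.

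Within 50 kb of the Nr4a3 peaks the list held a single other H3K9ac peak, 400 bp wide and higher in RA, at a distance of 27450 bp. On the other side the next deposited peak lay 79050 bp away. Among the listed peaks within 50 kb, differential H3K9ac was confined to the gene start and its upstream flank in CIH and to that one distal peak in RA.

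Nr4a2, which encodes NURR1, had 1 peak on chromosome 2 from 56975851 to 56976400, 550 bp wide and higher in RA. It had 6 other H3K9ac peaks within 50 kb, more than 93.1% of the deposited peaks had around them, and all 6 lay at lower coordinates. With touching peaks merged into 1 they were 3. They divided evenly, 3 in favour of CIH and 3 in favour of RA. The nearest, 5250 bp away, was 900 bp wide and higher in CIH. It closed a run of 4 touching peaks with widths of 400, 300, 200 and 900 bp, which were higher in RA, CIH, RA and CIH in turn. A peak of 600 bp higher in CIH lay 650 bp before this run.

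By length, the other listed peaks within 50 kb of Nr4a2 were mostly higher in CIH, unlike its own peak. The whole list was also mostly higher in CIH by length, so this is not particular to Nr4a2. The other peaks higher in CIH covered 1800 bp and those higher in RA 900 bp, or 1450 bp with the gene's own peak. With the gene's own peak counted, the share of the length that was higher in CIH was 55.4%, where the whole list had 59.9%. That own peak was chosen with its direction known and lowers the share, so nothing is read from this difference.

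**Figure D1:**
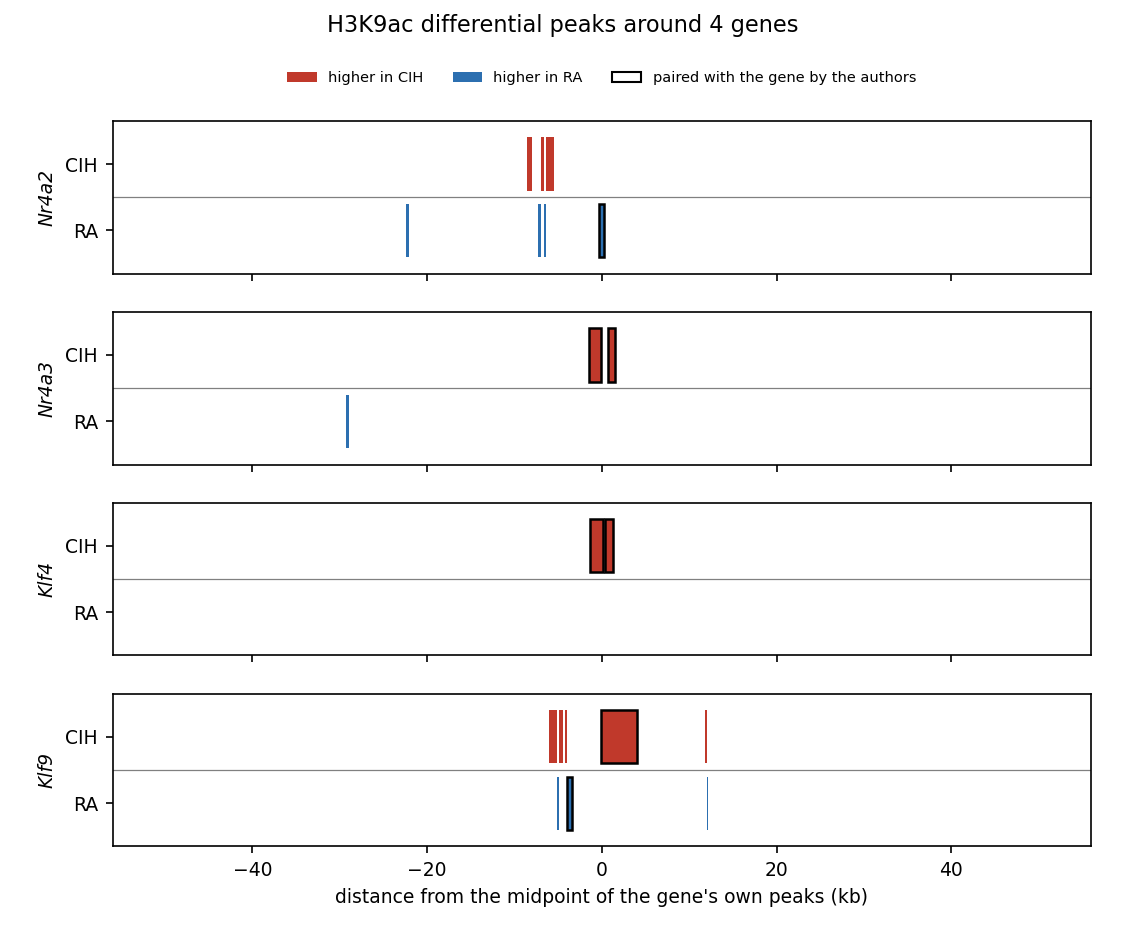
H3K9ac differential peaks around the 4 genes, one panel per gene, by distance from the midpoint of the gene's own peaks (horizontal axis, kb), with red boxes in the upper row for peaks higher in CIH and blue boxes in the lower row for peaks higher in RA, drawn to scale in width. Black outlines mark the 7 peaks paired with the genes. Klf4 has no other peak within 50 kb, Nr4a3 has 1, and Nr4a2 and Klf9 have 6 each.

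Klf4 had its 2 peaks on chromosome 4, from 55544351 to 55545750 and from 55546001 to 55547000. They were 1400 and 1000 bp wide, 250 bp apart and both higher in CIH. No other H3K9ac peak lay within 50 kb of them. The next deposited peak stood 116000 bp away on one side and 180750 bp away on the other. Both peaks were also paired with Gm12511, which RefSeq lists as a long non-coding RNA gene. The Klf4 promoter was not found in the bases held, which begin at the left edge of each peak, so the gene start could not be placed.

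In having a close partner of the same direction, the peaks of Nr4a3 and Klf4 were alike. Over the deposited list, 573 pairs of consecutive peaks were apart by 1000 bp or less without touching. In 41.7% of them both peaks were higher in CIH, in 28.1% both were higher in RA, and in 30.2% the directions were opposite. Of these pairs, 22.7% had no further peak within 50 kb, as the Klf4 pair.

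Klf9 had its peaks on chromosome 19. The peak higher in RA ran from 23210401 to 23211000 and was 600 bp wide. The peak higher in CIH began 3300 bp further on and ran from 23214301 to 23218450. With 4150 bp it was the widest of all 20943 H3K9ac differential peaks, and the next widest, on chromosome 8, had 3750 bp. Both Klf9 peaks were also paired with 2410080I02Rik, a long non-coding RNA gene that neighbours Klf9 in RefSeq.

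The Klf9 peak higher in RA was the only member to touch another peak. It directly followed a peak of 250 bp that was higher in CIH, and 150 bp before that stood a run of 3 touching peaks of 900, 200 and 500 bp, higher in CIH, RA and CIH. A further touching pair of 250 and 150 bp, higher in CIH and RA, lay 7750 bp beyond the wide peak. In all, Klf9 had 6 other peaks within 50 kb, 4 higher in CIH and 2 higher in RA. With the other member counted, each of its 2 members had 7 neighbours, more than 96.2% of the deposited peaks had. The count of 6 rests on narrow and touching peaks, since it was 2 without peaks up to 250 bp and 3 with touching peaks merged. With the members, 6050 bp were higher in CIH and 950 bp in RA.

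**Figure D2:**
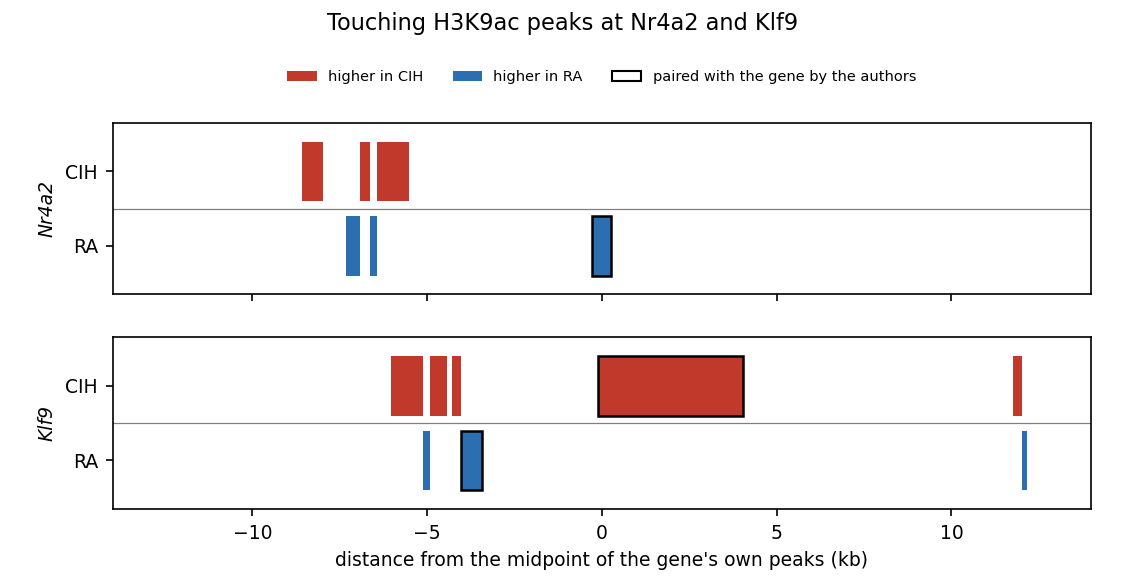
H3K9ac differential peaks at Nr4a2 (upper panel) and Klf9 (lower panel) by distance from the midpoint of the gene's own peaks (horizontal axis, kb), with red boxes for peaks higher in CIH, blue boxes for peaks higher in RA and black outlines for the peaks paired with the gene. At Nr4a2 a run of 4 touching peaks alternates in direction 5250 bp from the RA peak, and at Klf9 the peak of 4150 bp higher in CIH stands 3300 bp from the RA peak.

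Peaks that touch always had opposite directions in the list, 4157 of 4157 pairs, so the alternation at Nr4a2 and Klf9 holds for every run in the list and is not particular to these genes. Runs of 4 or more touching peaks, like the one near Nr4a2, numbered 101 and held 2.0% of the deposited peaks. Around Nr4a2 and Klf9 there were 7 touching pairs, and in 5 of them the peak higher in CIH was the wider. The one touching pair with a member in it was among the exceptions, with 600 bp in RA against 250 bp in CIH. In the whole list the peak higher in CIH was the wider in 68.1% of touching pairs.

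The widths of the members differed by direction as those of the list did. The 5 members higher in CIH were 750 to 4150 bp wide, where the deposited peaks of that direction had a median of 600 bp. The 2 members higher in RA had 550 and 600 bp, against a median of 300 bp. The study's table keeps peaks with many reads, and its peaks were wider than those of the list. The medians in the rows held here were 1400 bp for CIH and 850 bp for RA. Among those of its own direction, the second Nr4a3 peak was wider than 4.66%, the Nr4a2 peak than 8.1%, the Klf9 peak higher in RA than 13.0% and the second Klf4 peak than 16.9%. The upstream Nr4a3 peak was wider than 38.6%, the first Klf4 peak than 49.2% and the wide Klf9 peak than 99.6%.

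**Figure D3:**
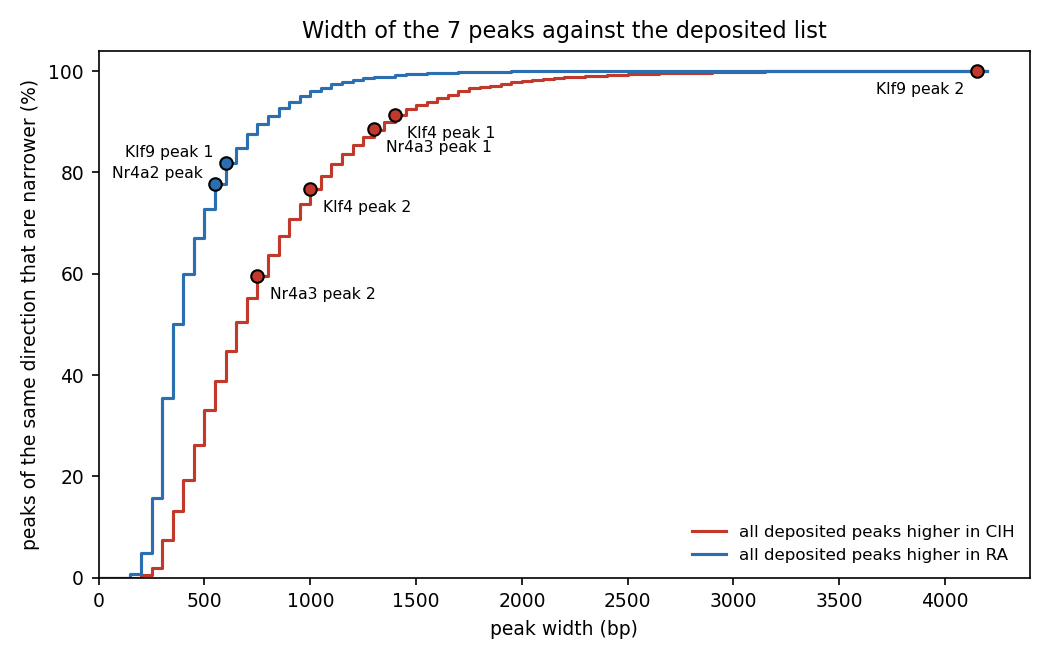
Percentage of deposited H3K9ac peaks of the same direction that are narrower (vertical axis) against peak width in bp (horizontal axis), with a red line for peaks higher in CIH, a blue line for peaks higher in RA and outlined points for the 7 members. The Klf9 peak of 4150 bp lies at the end of the red line, and the second Nr4a3 peak, at 59.6%, is the lowest point.

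Across the 4 genes, the 13 other peaks within 50 kb comprised 7 higher in CIH and 6 higher in RA. These are 53.8% higher in CIH, near the 45.4% of the list. By length, 3700 bp were higher in CIH and 1650 bp in RA, which is 69.2% for CIH against 59.9% in the whole list. The members themselves covered 8600 bp in CIH, of which the wide Klf9 peak made up 4150 bp, and 1150 bp in RA.

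**Figure D4:**
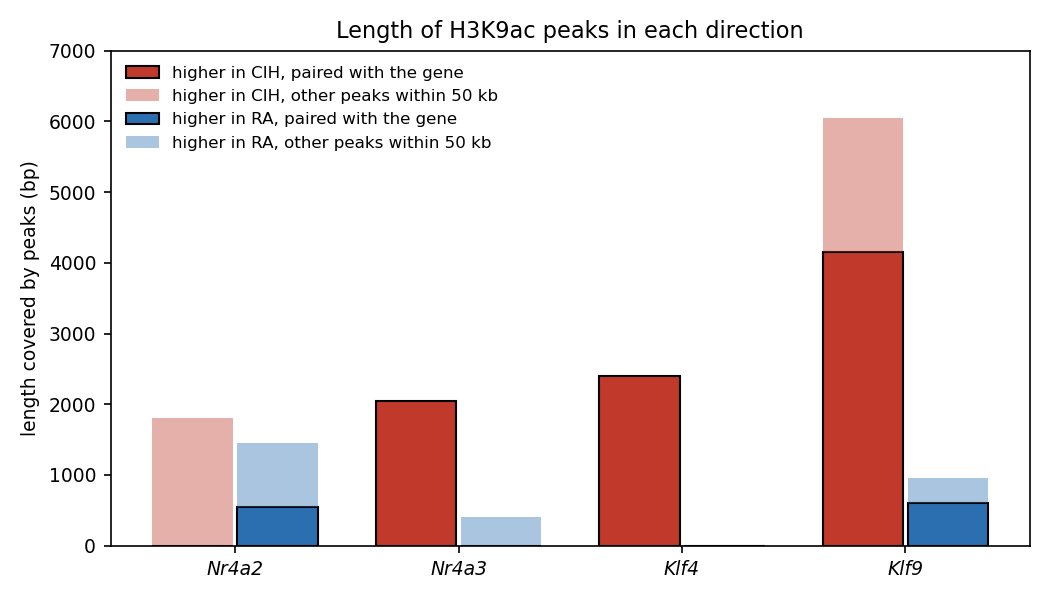
Length covered by H3K9ac differential peaks in bp (vertical axis) for each gene, red standing for a CIH direction and blue for an RA direction. Solid outlined parts are the peaks paired with the gene and pale parts are the other peaks within 50 kb. Nr4a2 has 1800 bp in CIH, none of it from its own peak, and Klf4 has 2400 bp in CIH and none in RA.

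No H3K27me3 differential peak lay within 50 kb of any member. The deposited list of that mark held 146 peaks in all. The nearest was 1170 kb from the Nr4a3 peaks and higher in RA, and those of Nr4a2 and Klf4 stood 2940 and 8660 kb away. Chromosome 19, which carries Klf9, had none. With so few peaks in the list, the absence of one near a gene does not show that its H3K27me3 was alike in the 2 libraries.

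The members were rich in G and C at their left edge, with the wide Klf9 peak as an exception. Over the first 300 bases of each peak, masked bases left out, the GC content was 73.3% and 67.3% in the Nr4a3 peaks, 68.0% in the Nr4a2 peak, 64.3% and 57.1% in the Klf4 peaks and 63.7% in the Klf9 peak higher in RA. The wide Klf9 peak had 46.5%. The peaks of the table rows held here had medians of 51.3% in CIH and 53.7% in RA. The upstream Nr4a3 peak exceeded 97.9% of those of its direction, and the wide Klf9 peak exceeded 30.5%. The Nr4a2 peak, higher in RA, and the second Nr4a3 peak, higher in CIH, had a like GC content in these bases. A link between GC content and direction was not tested.

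Motifs were searched on both strands in the first 300 bases of each peak, and a match is a description of these letters only. The short site TGACG stood 4 times in the second Nr4a3 peak and once in the upstream one, and in no other member, so it was found in 2 of 7. It was present in 21.0% of the 482 table peaks with at least 300 bases held. A count of 4 or more was rare, at 0.622% of those peaks. The full palindrome TGACGTCA, which contains the short site, and the NR4A response element AAAGGTCA had no match in any member, where 1.45% and 1.04% of the table peaks held them. By direction, the palindrome stood in 0.424% of the 236 CIH peaks of the table and 2.44% of its 246 RA peaks, so few peaks lie behind either share.

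The core ACGTG was found in 5 of the 7 members, in both peaks of Nr4a3 and of Klf4 and in the Nr4a2 peak, against 20.3% of the table peaks. In the Nr4a2 peak it lies within the E-box CACGTG, which 5.19% of the table peaks held and no other member did. In the second Nr4a3 peak it overlaps one of the short sites, as TGACGTG. The GC box GGGCGG stood in 4 members, against 29.7%, and CCACACCC, a form of the CACCC sequence, in 1, against 2.9%. The latter share divides into 1.27% of the CIH peaks and 4.47% of the RA peaks, again with few peaks behind each. The AP-1 sequence TGANTCA was found in none, against 7.05%. In the bases searched the 2 Klf9 peaks held no ACGTG, but most of the wide one was not searched. The shares of the table peaks were not matched for GC content, which was 57.1% to 73.3% in the 5 members with ACGTG. The medians of the table peaks were 51.3% in CIH and 53.7% in RA.

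The RefSeq promoters of the 4 genes all held the short site TGACG, which 20.8% of 32851 promoters of the same length held. It stood 4 times in that of Nr4a2, 4 times in that of Nr4a3 and once each in those of Klf4 and Klf9. At least 4 short sites were found in 0.231% of all promoters, 76 in number. Nr4a1, the remaining member of the NR4A family, had no peak in the rows held here, which may not cover its chromosome. Its promoter held 4 as well. Nr4a2, whose peak was higher in RA, and Nr4a3, whose peaks were higher in CIH, had the same number of short sites before the gene start. A link between the number of sites and direction was not tested. Only the Nr4a3 promoter was found in the bases held of a member peak. The bases held of the Nr4a2 peak had no short site, so its promoter sites could not be placed in that peak. The promoter stretches with short sites are shown on the strand of the gene with the coordinates of build GRCm38.p6, with TGACG or CGTCA in capitals. The promoter of Nr4a3 is the first sequence shown above.

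Nr4a2 promoter, minus strand of chr2:57124084-57124233: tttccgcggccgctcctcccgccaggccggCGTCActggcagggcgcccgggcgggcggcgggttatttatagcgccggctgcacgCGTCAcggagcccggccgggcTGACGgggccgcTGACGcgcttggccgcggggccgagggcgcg
Klf4 promoter, minus strand of chr4:55532673-55532725: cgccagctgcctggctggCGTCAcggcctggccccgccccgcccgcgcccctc
Klf9 promoter, plus strand of chr19:23141150-23141214: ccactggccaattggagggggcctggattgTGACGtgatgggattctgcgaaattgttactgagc

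**Figure D5:**
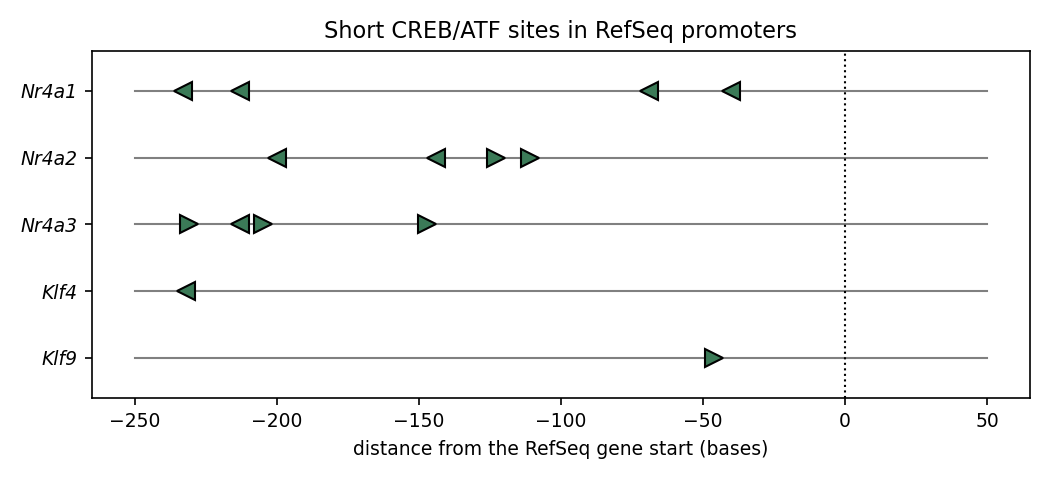
Positions of the short site TGACG in the RefSeq promoters of the NR4A genes, Klf4 and Klf9, by distance from the gene start in bases (horizontal axis), with triangles pointing right for the strand of the gene and left for the opposite strand. The 3 NR4A promoters hold 4 short sites each and the Klf4 and Klf9 promoters 1 each, those of Nr4a3 lying between 231 and 147 bases before the start.

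The related genes were taken from lists of 48 nuclear receptors, 26 Sp and Kruppel-like factors and 19 genes of CREB and protein kinase A. In the rows held here, 6 nuclear receptor genes had a peak, 2 higher in CIH and 4 higher in RA, where 48.9% of the table peaks were higher in CIH and 2.38% of protein-coding genes had a peak. Nr4a2 and Nr4a3 are among the 6 by the choice of members, so nothing is read from these counts. Beside Nr4a3, the one higher in CIH was Nr5a1, which encodes steroidogenic factor 1, with a peak of 950 bp. Those higher in RA were Nr4a2, Rxra, whose protein forms heterodimers with NURR1 among others, Hnf4a, the hepatocyte nuclear factor gene, and Nr6a1, encoding germ cell nuclear factor. Their peaks had 550, 800, 550 and 900 bp, and those of Rxra, Hnf4a and Nr6a1 were each paired with a second gene as well. Of the Sp and Kruppel-like factors, Klf4 and Klf9 alone had peaks there. Of the CREB and protein kinase A genes, Prkacb, a catalytic subunit gene of the kinase that acts on CREB, had a peak of 2700 bp higher in RA, a width that no other peak of that direction in the list exceeded, and it was paired with Ttll7 too. Every listed gene with a peak lay on chromosome 2, 3, 4 or 19, so the rows held may not cover every chromosome. A gene without a peak in these rows may have one in the rest, and the share of 2.38% may not be a like background.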

How the data were processed

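The submitters' processing notes name MACS2 2.1.0, bedtools 2.23.0, Picard 1.121, SAMtools 1.2, BWA 0.7.12, Trimmomatic 0.32 and the build mm9. For each mark the authors deposited the differential peaks in 1 list, giving coordinates, a sign and a score, which is 1000 throughout and could not be used. The sign was read from the exposure that the study's table names for 483 peaks, with no exception. The counts and p-values of that table were not used here, only its pairing of peaks with genes, its exposure names and its sequences, of which it holds up to 400 bases per peak. Positions are counted from 1 and distances run from edge to edge. Widths, neighbours within 50 kb, GC content and motifs were computed with Python 3.11.15, numpy 2.4.6 and pandas 2.3.3, and the functions were tested on simulated data. Promoters came from RefSeq, build GRCm38.p6, in which all 4 genes matched by symbol. With 1 library per mark and exposure no test was run. Members, gene lists and motifs were chosen with earlier results of these data known. Named were the 4 genes, genes paired with the same peaks and listed genes with a peak in the rows held.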

Additional observations from a re-analysis of the deposited data

How the results depend on the processing

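No paired analysis was possible because each mark and exposure has 1 library. A stricter score could not be tried, as the score is the same in every row. Of the alternatives, the motif counts and the absence of H3K27me3 peaks moved little or not at all, by at most 1.5 times. The same holds for the width ranks when all deposited peaks replaced those of the same direction. Against the table peaks held, the width ranks were lower, at 4.66% in place of 59.6% for the second Nr4a3 peak. The wide Klf9 peak stayed near the top, at 99.6%. The directions could not move, since the sign was read from the exposure that the study's table names. The number of other H3K9ac peaks at Nr4a3, 1 within 50 kb, was 0 within 10 and 20 kb and 2 within 100 kb. With touching peaks merged it was 3 at Nr4a2 and 3 at Klf9 in place of 6, and without peaks up to 250 bp it was 2 at Klf9. The length of other peaks in CIH minus that in RA at Nr4a2, 900 bp, was 1200 bp within 10 and 20 kb and 250 bp within 100 kb, and 350 bp with the gene's own peak. At Nr4a3 it was -400 bp, then 0 bp within 10 and 20 kb, -1000 bp within 100 kb and 1650 bp, the opposite direction, with its own peaks, which by construction are both higher in CIH. With own peaks it was 2400 bp at Klf4 in place of 0 and 5100 bp at Klf9 in place of 1550, and 2100 bp at Klf9 within 100 kb. Read depth was not used here and there is no replicate error, which limits every direction.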
